A study of Mus musculus with 454 samples.

Results

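The genes described here encode 8 subunits of the neuronal nicotinic acetylcholine receptor (Chrna3, Chrna4, Chrna5, Chrna6, Chrna7, Chrnb2, Chrnb3 and Chrnb4) and 2 proteins that mark cholinergic neurons (Chat and Slc5a7). They were taken by name, with symbols mapped from the Ensembl identifiers of the count table, and are 10 of its 43346 genes. The study counted polyadenylated RNA in 454 mouse libraries from 4 brain regions labelled AMY (115 libraries), Nac (112), PFC (112) and VTA (115), and its title names the medial amygdala and social isolation in adolescence. In each region 16 groups crossed sex (F or M), housing (G, group housed, or SI, socially isolated), cocaine dose (0, called saline here, or 7.5 mg/kg) and schedule (A, acute, or CHR, chronic), with 5 to 8 libraries a group. Strain, age at dissection and the length of the chronic schedule were not stated in the labels. The labels do not say that libraries of a group came from separate animals, so each p-value reflects variation among libraries, part of which may be technical.

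Nicotinic receptors are cation channels of 5 subunits that open when acetylcholine or nicotine binds. Receptors with Chrna4 and Chrnb2 are the common high-affinity type of the brain, Chrna7 can form receptors without other subunits, and Chrna6 and Chrnb3 are known for receptors of midbrain dopamine neurons, whose cell bodies lie in the ventral tegmental area. Chrna3, Chrna5 and Chrnb4 are known from autonomic ganglia, the medial habenula and the interpeduncular nucleus. Chat makes acetylcholine and Slc5a7 takes choline back into cholinergic terminals, so their RNA marks neurons that release acetylcholine, such as the interneurons of the striatum and accumbens.

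Library totals ran from 11.21 to 52.34 megacounts (median 21.71). Marker genes followed the region labels, though less clearly for AMY. Levels are in CPM, read counts scaled to the library's total and its TMM normalization factor. The summed level of 10 dopamine neuron genes had a median of 5293 CPM in VTA and of 50.91 to 82.91 in the other regions. Striatal neuron genes summed to a median of 5039 CPM in Nac and of 269.8 to 443.9 elsewhere, and cortical glutamatergic genes to 2273 CPM in PFC and 69.8 to 388.7 elsewhere. Amygdala and hypothalamus genes summed to a median of 193.1 CPM in AMY, against 179.7 in Nac, 95.86 in VTA and 93.95 in PFC. By sum they thus hardly separated AMY from Nac, whereas their mean log2(CPM + 0.1) was 3.52 in AMY and 1.1 in Nac. In all, 20 libraries (AMY 5, Nac 5, PFC 4, VTA 6) stood apart from their region on principal components, on markers of another tissue or on transcripts of the opposite sex, and results that changed without them are given both ways. Sample titles carry a number in the series 500, 1000, 1100 or 1200. Acute libraries came from series 1000 and 1100, chronic saline libraries from 500 and 1200 and chronic cocaine libraries from 1000 and 1200, so under saline the schedule and the number series cannot be told apart. In bulk tissue, fewer cells of a type and less RNA per cell cannot be told apart either.

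Among the subunit genes, 3 lie side by side on chromosome 9 of GRCm38: Chrna5 (54980880 to 55007779, plus strand), Chrna3 (55010111 to 55026562, minus) and Chrnb4 (55028154 to 55048779, minus). Chrnb3 (27368711 to 27399730, plus) and Chrna6 (27403212 to 27413944, minus) are neighbours on chromosome 8. Chrna4 lies on chromosome 2 (181018380 to 181043546, minus), Chrna7 on 7 (63098692 to 63212569, minus), Chrnb2 on 3 (89746195 to 89764632, minus), Chat on 14 (32408203 to 32465989, minus) and Slc5a7 on 17 (54273590 to 54299034, minus). Exons of Chrnb2 and of Adar, on the opposite strand, overlap over 1365 bases (16.3% of the exon length of Chrnb2), and whether the counting used strand is not stated in the labels.

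The start regions of 4 genes are printed because the results below turn on them: Chat and Slc5a7, whose levels moved together, and Chrna4 and Chrna3, which differed with schedule in VTA. RefSeq promoter entries on GRCm38.p6 matched 8 of the 10 genes, and none is printed for Chrna6 or Chrnb3. Each line gives the 250 bases before a RefSeq start, 5′ to 3′ on the gene's minus strand. Capitals mark GGGCGG (the GC box, in 32.7% of 32851 promoters of this length) or TATAAA (the TATA box, in 12.4%), each searched on both strands with no overlap between them here.
Chat: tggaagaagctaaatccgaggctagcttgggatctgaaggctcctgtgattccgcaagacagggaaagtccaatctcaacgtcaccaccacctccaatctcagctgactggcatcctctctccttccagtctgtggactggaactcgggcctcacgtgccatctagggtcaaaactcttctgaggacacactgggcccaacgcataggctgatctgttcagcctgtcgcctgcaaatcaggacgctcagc
Slc5a7: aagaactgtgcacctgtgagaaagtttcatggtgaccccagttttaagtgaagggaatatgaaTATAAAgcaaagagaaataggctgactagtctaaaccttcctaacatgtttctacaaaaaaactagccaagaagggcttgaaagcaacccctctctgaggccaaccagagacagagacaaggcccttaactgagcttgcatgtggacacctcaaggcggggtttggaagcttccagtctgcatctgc
Chrna4: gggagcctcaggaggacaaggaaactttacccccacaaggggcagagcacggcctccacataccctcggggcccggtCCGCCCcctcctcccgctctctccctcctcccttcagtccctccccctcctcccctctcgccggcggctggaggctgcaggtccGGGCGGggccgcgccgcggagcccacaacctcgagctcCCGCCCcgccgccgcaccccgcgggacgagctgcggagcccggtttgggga
Chrna3: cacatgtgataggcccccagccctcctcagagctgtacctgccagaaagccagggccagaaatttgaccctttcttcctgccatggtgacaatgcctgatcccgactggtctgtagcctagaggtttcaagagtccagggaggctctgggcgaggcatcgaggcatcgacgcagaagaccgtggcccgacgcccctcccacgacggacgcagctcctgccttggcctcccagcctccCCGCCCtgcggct
They lie at chr14:32465910-32466159, chr17:54299035-54299284, chr2:181039178-181039427 and chr9:55026563-55026812, in the order printed. The Chrna4 window falls inside the gene's outer bounds given above, and the Chat window overlaps those of Chat in part. The Chrna4 stretch is 74.4% G and C and holds 3 GC boxes, and that of Chrna3 is 63.2% G and C with 1 GC box. The Slc5a7 stretch (45.6%) holds 1 TATAAA, and the Chat stretch (54.8%) holds neither motif. The median promoter was 52.4% G and C. AAAGGTCA, a site for Nr4a-type receptors (1.34% of promoters), and TAATTA, a core of LIM homeodomain sites (4.84%), were in none of the 4. A match describes letters in this window and was not tested as a site.

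All 8 subunits had their highest median level in VTA, and Chat and Slc5a7 had theirs in Nac. Chrna6 and Chrnb3 were the most restricted. The Chrna6 level in VTA ran from 47.75 CPM through a median of 212.9, and its median elsewhere was 0.4185 in AMY, 0.1679 in Nac and 0.2237 in PFC. The highest value outside VTA was 10.98 CPM, in 1 Nac library, so no library of another region reached the lowest VTA library. The fitted level of Chrna6 in VTA was 481-fold that in AMY, 844-fold that in Nac and 823-fold that in PFC. Chrnb3, which joins Chrna6 in receptors of dopamine neurons, had a median of 123.1 CPM in VTA (lowest 31.58), 0.5681 in AMY, 0.1406 in Nac and 1.427 in PFC. Its level in VTA was 196-fold, 589-fold and 79.1-fold that in AMY, Nac and PFC.

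Chrna4, the main partner of Chrnb2, was also graded across regions. Its median was 275.2 CPM in VTA, 66.61 in PFC, 22.37 in AMY and 15.75 in Nac, and every VTA library lay above every library of the other regions. The VTA level was 11.9-fold that in AMY, 15.1-fold that in Nac and 4.1-fold that in PFC. Chrnb2, the most broadly used β subunit, differed far less. Its median was 124.3 CPM in VTA, 86.85 in AMY, 74.82 in PFC and 71.63 in Nac, so that VTA was 1.43-fold to 1.72-fold higher. Chrna7 had medians of 22.83 CPM in VTA, 16.99 in AMY, 13.68 in PFC and 10.38 in Nac, with overlapping ranges in every pair with VTA.

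The 3 chromosome 9 neighbours did not share 1 order of regions. Chrna3 ran from a median of 16.37 CPM in VTA through 2.288 in AMY and 1.127 in Nac to 0.4362 in PFC. Chrna5, an accessory subunit that joins other α subunits, was second highest in PFC, with a median of 5.461 CPM against 14.9 in VTA, 0.4572 in AMY and 0.2693 in Nac. Chrnb4 was low throughout, with medians of 1.007 CPM in VTA, 0.5903 in Nac, 0.4115 in AMY and 0.0452 in PFC, where 42 of 112 libraries had no read. It did not pass the filter on low counts in PFC and was not tested there.

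Chat had a median of 22.82 CPM in Nac, 1.397 in AMY, 1.265 in VTA and 0.2974 in PFC, and Slc5a7 of 46.73, 3.266, 3.126 and 1.805 CPM in the same order. Chat in Nac was 52-fold the PFC level, and Slc5a7 21.7-fold. Between AMY and VTA the size of the difference in Chat, and its call, depended on the test (p-values here and below are Benjamini-Hochberg adjusted). The quasi-likelihood test of edgeR gave a log2 difference of 1.15 (adjusted p = 2.95e-10), and 1 limma voom fit gave 0.0465 (adjusted p = 0.835). AMY libraries were widely spread: the quartiles of Chat were 0.5073 and 6.407 CPM, and single libraries reached 54.23.

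All 10 genes passed the threshold of 0.05 in 5 of the 6 pairs of regions, and 9 did between Nac and PFC, where Chrna6 differed by -0.04 on the log2 scale (SE 0.196, adjusted p = 0.868). These counts carry little weight by themselves, because region separated most genes: the test called 84.4% of genes between AMY and Nac, 81.5% between AMY and PFC, 87.3% between AMY and VTA, 86% between Nac and PFC, 90.4% between Nac and VTA and 89.3% between PFC and VTA. The size of the called differences ran from 1.04-fold for Chrnb2 between PFC and Nac to 844-fold for Chrna6 between VTA and Nac.

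**Figure D1:**
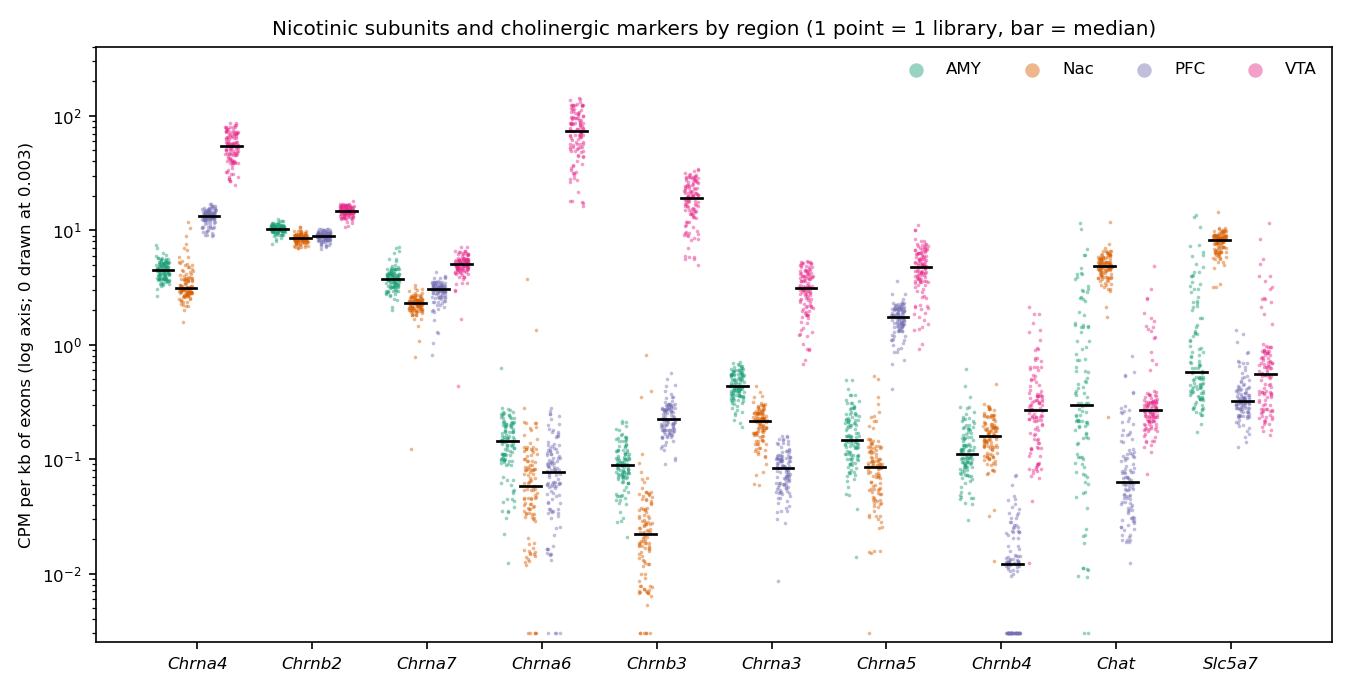
Level of the 10 genes in CPM per kilobase of exon (log axis) in each of the 454 libraries (points), coloured by region, with the median as a bar; libraries with no read are drawn at 0.003. Chrna6 in VTA (median 73.26 CPM per kilobase) and Chrnb3 in VTA (19.32) lie clear of every other region, whereas Chrnb2 has medians from 8.547 (Nac) to 14.83 (VTA).

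Within a region, levels between genes can be compared per kilobase of exon. In VTA the order of median CPM per kilobase was Chrna6 (73.26), Chrna4 (54.81), Chrnb3 (19.32), Chrnb2 (14.83), Chrna7 (5.067), Chrna5 (4.768), Chrna3 (3.109), Slc5a7 (0.5539), Chrnb4 (0.2704) and Chat (0.269). In PFC Chrna4 led with 13.26, followed by Chrnb2 with 8.929, Chrna7 with 3.038 and Chrna5 with 1.747. AMY and Nac were led by Chrnb2, at 10.36 and 8.547 CPM per kilobase. In AMY Chrna4 (4.454) and Chrna7 (3.771) came next, and in Nac Slc5a7 (8.28), Chat (4.853), Chrna4 (3.136) and Chrna7 (2.303).

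Levels of several members covaried between libraries of the same group. For each gene and library the deviation of its log2 CPM from its group's mean was taken, and 23 relations were computed across libraries, with 2-sided permutation p-values. Chrna6 and Chrnb3 in VTA had Pearson r = 0.98 (Spearman rho = 0.972, 115 libraries), 0.978 without the 2 farthest libraries and 0.957 to 0.987 within the 4 number series. Their r with the mean level of the dopamine neuron list was 0.985 (rho 0.983) and 0.978 (rho 0.968), and 0.979 to 0.992 and 0.931 to 0.989 within series. Other subunits followed the list less closely: Chrna4 with r = 0.865 (rho 0.858), Chrna3 with 0.861 (0.847), Chrnb2 with 0.855 (0.842), Chrna5 with 0.753 (0.731) and Chrnb4 with 0.423 (0.396). Without the 2 farthest libraries these were 0.85, 0.844, 0.84, 0.728 and 0.389. Chrna7 showed no such relation, with r = -0.00504 (rho 0.0157, permutation p = 0.96, adjusted 0.96). For the others named, the Pearson p was 1e-05, the smallest that the resamples allow (adjusted 1.3e-05). Chrnb4 also followed the interpeduncular markers over all libraries (r = 0.46, rho 0.39, 0.412 without the 2 farthest). Within series the sign differed: r was 0.531 in series 1000 (49 libraries) and 0.747 in 1100 (29), but -0.27 in 1200 (25) and -0.603 in 500 (12).

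Chat and Slc5a7 varied together in every region. Their r was 0.952 in AMY (rho 0.95), 0.813 in Nac (rho 0.81), 0.738 in PFC (rho 0.669) and 0.872 in VTA (rho 0.638), each with permutation p = 1e-05 (adjusted 1.3e-05). Without the 2 farthest libraries r was 0.949, 0.802, 0.72 and 0.84, and within number series it was 0.914 to 0.979, 0.65 to 0.931, 0.616 to 0.806 and 0.825 to 0.956. In AMY both followed the transcription factors and receptors of cholinergic neurons (r = 0.947, rho 0.933, for Chat and 0.962, rho 0.939, for Slc5a7, and 0.944 and 0.957 without the 2 farthest). In PFC they followed the striatal neuron list (r = 0.831, rho 0.74, and 0.817, rho 0.757, and 0.822 and 0.799 without the 2 farthest). The p-values of these 4 relations were also 1e-05 (adjusted 1.3e-05), and within series r ran from 0.934 to 0.975 in AMY and from 0.641 to 0.896 in PFC.

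**Figure D2:**
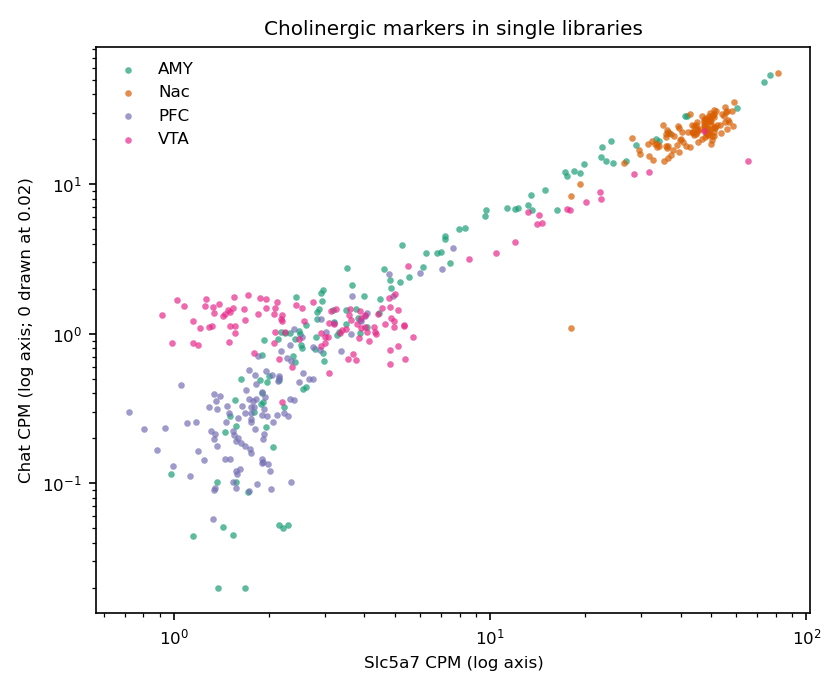
Chat against Slc5a7 in CPM (both axes log) in each library (points), coloured by region; Chat values of 0 are drawn at 0.02. Nac libraries cluster around the medians of 22.82 (Chat) and 46.73 (Slc5a7), whereas AMY libraries spread along a line from Chat values of 0 to 54.23.

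The genes most alike each member were listed, as a description, over the libraries of its highest region. For Chrna6 these were Fam167a (r = 0.983), Trpc6, Chrnb3, Ntsr1 and Slc6a3, the dopamine transporter, over 115 VTA libraries. For Chrnb3 they were Fam167a, Chrna6, Ret, Trpc6 and Il13ra1. Chrna4 was closest to Ret (r = 0.925), a receptor of dopamine neurons for GDNF-family ligands, then Dlk1, Drd2, Apba1 and Etv5. Chrnb2 was closest to Scrn1, Scml4, Lmx1b, Magee1 and Gabbr1. Chrna3 was closest to Scn3b (r = 0.946), Gsg1l, Syt1, C130021I20Rik and Cd200, and Chrna5 to Chrna3 (r = 0.902), Syt1, Lrrc55, Scn3b and Smarca1. Genes close to Chrnb4 included Cacng5, Chrna5, Vat1l and Cngb1. Chrna7 was closest to Slc9a7 (r = 0.918, rho = 0.693), Pcdhac2, Klf7, Tnks and Mtmr9. Over 112 Nac libraries Chat was closest to Abat (r = 0.841, and 0.69 without the libraries that stood apart), Slc5a7, Stim1, Specc1l and Copg1, and Slc5a7 to Chat, Robo1, Abat, Htr4 and Elmo1.

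Housing did not change any of the 10 genes past the threshold in any region. The comparison of isolated with group-housed libraries over all doses and schedules gave 39 tests of the members (10 genes in 3 regions and 9 in PFC), of which 0 were called and 5 had an unadjusted p under 0.05, with a lowest adjusted p of 0.995. It called 0% of all genes in AMY, Nac, PFC and VTA. In females under saline and in males under saline it called 0% in each region as well, with 0 and 1 of the members' 39 tests under 0.05, and the difference of the housing effect between the sexes called 0% in each region, with 0 under 0.05. DESeq2 and limma voom called none of the members in these 4 comparisons.

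The width of the intervals differed between genes. For Chrnb2 the 95% interval lay within -0.0698 and 0.0524 on the log2 scale in all 4 regions, and Chrna6 in VTA differed by 0.03 (-0.198 to 0.26). Among the smallest unadjusted p-values, Chrna4 in AMY differed by 0.09 (adjusted p = 0.995) and Chrnb4 in Nac by -0.26 (adjusted p = 1). Chat and Slc5a7 had wide intervals. In AMY, Slc5a7 under saline had a median of 4.619 CPM (1.365 to 24.18) in 15 group-housed male libraries and of 12.22 (1.431 to 41.17) in 15 isolated male libraries. In females the medians were 2.873 (1.575 to 28.92, 13 libraries) and 3.011 (1.627 to 76.69, 14 libraries), so the groups overlapped in both sexes. Over all libraries of AMY, isolated minus group-housed was 0.61 for Slc5a7 (0.0359 to 1.19) and 0.64 for Chat (-0.114 to 1.4), each with an adjusted p = 0.995. In VTA the sign was the other way, at -0.59 for Slc5a7 and -0.48 for Chat, both with adjusted p = 1.

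**Figure D3:**
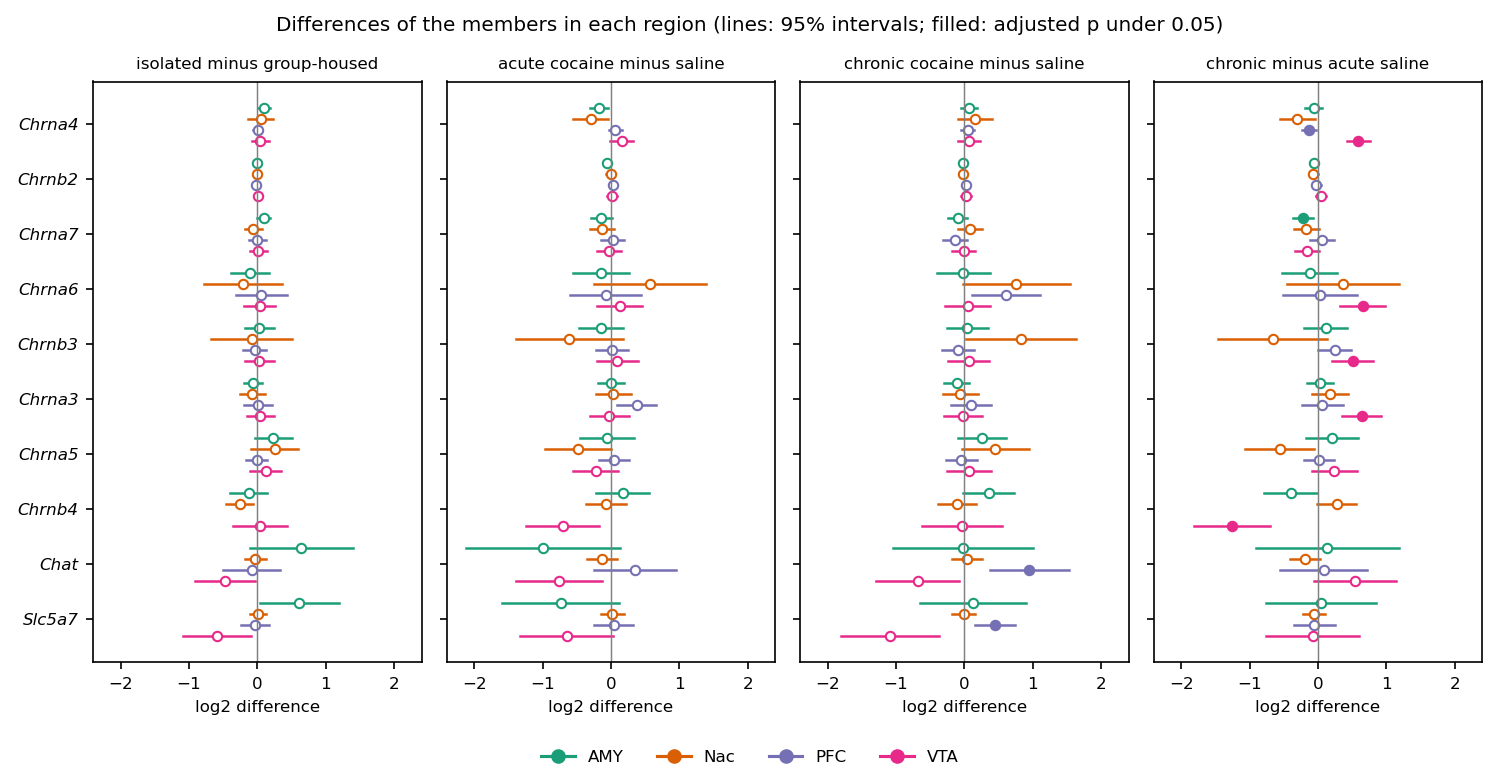
Log2 differences of the 10 genes (points, with 95% intervals as lines) in each region for housing, acute cocaine, chronic cocaine and schedule under saline; Chrnb4 in PFC was not tested. Filled points have an adjusted p under 0.05: the 7 for schedule include 5 in VTA, and the 2 for chronic cocaine are Chat (0.95) and Slc5a7 (0.45) in PFC.

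Acute cocaine did not change a member past the threshold either. Of the 39 tests 0 were called and 5 had an unadjusted p under 0.05 (lowest adjusted p 0.363), against 0% of all genes called in AMY and in Nac, 0.0647% in PFC and 0.0467% in VTA. Among these 5, Chrna4 differed by -0.17 in AMY (adjusted p = 1) and by -0.29 in Nac (adjusted p = 0.903). In PFC Chrna3 differed by 0.37 (adjusted p = 0.363), and in VTA Chrnb4 by -0.71 (adjusted p = 0.538) and Chat by -0.76 (adjusted p = 0.639). Whether the acute effect differed among the 4 combinations of sex and housing was tested too, and 0 of 39 were called (1 under 0.05) against 0% of genes in AMY, Nac and PFC and 0.362% in VTA. DESeq2 and limma voom called no member in either comparison.

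The Nac value for Chrna4 moved with 6 libraries. The 6 Nac libraries with the most Chrna4 (58.95, 52.57, 45.17, 38.12, 35.27 and 33.46 CPM, against a median of 15.75) were also the 6 with the most cortical glutamatergic RNA. Their sums over that list were 1379, 1250, 741.5, 824.2, 682.9 and 658.1 CPM, against a Nac median of 69.8. All 6 were acute libraries of number series 1100, 5 of males given saline and 1 of isolated females given cocaine. At least 5 of the 6 were not among the libraries that stood apart, so leaving those out kept them. The part of cortical RNA in the Nac differences of Chrna4 was not tested.

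Chat and Slc5a7 rose in PFC with chronic cocaine, a call that several other settings did not keep. Chat had a median of 0.2881 CPM (0.05774 to 2.561) in 26 chronic saline libraries and of 0.4596 CPM (0.08935 to 3.748) in 28 chronic cocaine libraries. Slc5a7 had a median of 1.57 CPM (0.801 to 5.991) under saline and of 2.203 CPM (0.7193 to 7.611) under cocaine. The ranges overlapped for both genes, and the saline median was exceeded in 20 of 28 cocaine libraries for Chat and in 22 of 28 for Slc5a7. Chat rose by 0.95 on the log2 scale (SE 0.296, 95% interval 0.367 to 1.53, adjusted p = 0.0361) and Slc5a7 by 0.45 (SE 0.148, adjusted p = 0.0455). Without the libraries that stood apart the values were 0.73 (adjusted p = 0.143) and 0.29 (adjusted p = 0.244), and within number series 1200, which alone holds both arms, they were 0.63 and 0.28 (adjusted p = 1 for each). By limma voom the adjusted p was 0.0948 for Chat and 0.0994 for Slc5a7.

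The rise was largest in isolated males. Their 7 chronic cocaine libraries had Chat levels of 0.811, 0.328, 3.75, 2.69, 0.766, 1.80 and 0.457 CPM, against 0.311, 0.125, 0.258, 0.567, 0.0577, 0.322 and 0.367 CPM in 7 isolated males with chronic saline. Slc5a7 in the same cocaine libraries was 2.76, 1.64, 7.61, 7.02, 2.18, 4.92 and 1.05 CPM, against 1.37, 1.62, 2.06, 1.96, 1.33, 1.29 and 1.72 under saline. The third and the fourth cocaine library held the highest levels of both genes and stood apart from the region. Only the sixth and the seventh cocaine library shared a number series (1200) with any of these saline libraries, and the others were of series 1000. Dose and number series can thus hardly be told apart in this combination. In this combination Chat rose by 2.43 (SE 0.548, adjusted p = 0.00563) and Slc5a7 by 1.28 (SE 0.286, adjusted p = 0.00563), where the test called 6.91% of all genes. The values for Chat were 0.701 in group-housed females, 0.62 in isolated females and 0.0324 in group-housed males, and for Slc5a7 0.0882, 0.404 and 0.0354, and no gene at all was called in these 3 combinations. The test of a difference among the 4 combinations gave an adjusted p = 1 for each gene, so the effect was not shown to differ among them.

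Striatal genes moved with both. The list of 8 striatal neuron genes summed to 194.3 to 848.5 CPM (median 267.9) in chronic saline libraries of PFC and to 226.5 to 1639 CPM (median 286.7) in chronic cocaine libraries. Of the 8 genes 6 rose: Adora2a by 1.18, Drd2 by 1.17, Penk by 0.70, Rgs9 by 0.50, Ppp1r1b by 0.49 and Drd1 by 0.39, and the median of the list was 0.524 against 0.00233 over all genes tested. The test called 7.12% of all genes there. Genes of other lists passed too, among them Clic6 of choroid plexus (1.16), Slc6a3 of dopamine neurons (0.74) and Nwd2 of the medial habenula list (-0.31). Isl1, a transcription factor of striatal and cholinergic neurons, rose by 1.67 (adjusted p = 0.0129). In the 7 isolated male cocaine libraries, in the order given above, the striatal sums were 267.8, 240.7, 1272, 1639, 515.4, 496.7 and 250.9 CPM. The 2 libraries with the most Chat were the 2 with the most striatal RNA. With the level of that list in the model, Chat differed by 0.12 (adjusted p = 0.891) and Slc5a7 by 0.05 (adjusted p = 0.916). The list came from the same libraries, and its part in the difference was not tested.

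**Figure D4:**
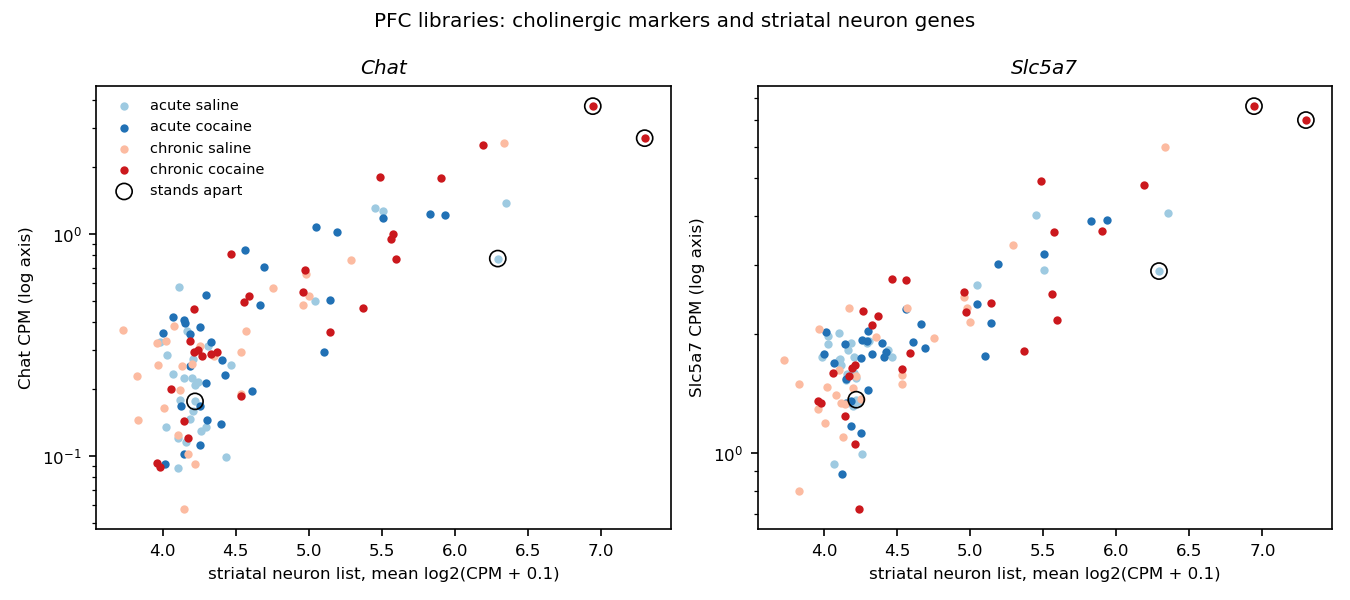
Chat (left) and Slc5a7 (right) in CPM (log axis) against the mean log2(CPM + 0.1) of 8 striatal neuron genes in each PFC library (points), coloured by schedule and dose, with circles around the 4 libraries that stand apart. Both genes climb with the striatal list in every group, and the 2 circled chronic cocaine libraries, with Chat at 3.75 and 2.69 CPM, lie at its upper end.

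Elsewhere chronic cocaine changed no member past the threshold. Over 39 tests 2 members were called (both in PFC) and 6 had an unadjusted p under 0.05, against 7.12% of all genes called in PFC, 0.151% in Nac, 0.0817% in VTA and 0.0518% in AMY. In PFC 2 of 9 tested members passed. Slc5a7 in VTA differed by -1.09 (adjusted p = 0.484), and by 0.0078 within series 1200. Chrna6 in PFC differed by 0.60 (adjusted p = 0.124) and Chrnb3 in Nac by 0.83 (adjusted p = 0.253). A Nac library of group-housed females with chronic cocaine, which stood apart, held the region's most Chrna6 (10.98 CPM) and Chrnb3 (5.22 CPM), and its dopamine neuron list summed to 271.4 CPM against a Nac median of 62.26. Chronic and acute effects of cocaine did not differ past the threshold in 39 tests (0 called, 4 under 0.05), against 0% of genes in AMY, Nac, PFC and VTA. The chronic effect did not differ among sex and housing combinations for any member (0 called, 3 under 0.05), against 0.145% in Nac, 0% in PFC, 0% in VTA and 0% in AMY. DESeq2 and limma voom called no member in these last 2 comparisons.

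Sex made no difference past the threshold. Over 39 tests 0 members were called, 5 had an unadjusted p under 0.05 and the lowest adjusted p was 0.0608, against 2.19% of all genes in AMY, 1.12% in PFC, 0.332% in VTA and 0.272% in Nac. The nearest were again Chat and Slc5a7 in PFC. Chat had a median of 0.255 CPM in 56 female and 0.3807 CPM in 56 male libraries (females minus males -0.69, adjusted p = 0.086), and Slc5a7 of 1.755 and 1.908 CPM (-0.36, adjusted p = 0.0608). DESeq2 called both (adjusted p = 0.0489 and 0.0422), with 1.5% of all genes called, and limma voom called neither.

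With schedule under saline, most of the called differences were in VTA. Of the 10 members 4 rose and 1 fell from acute to chronic saline in VTA, 1 fell in AMY, 1 fell in PFC and none was called in Nac, so 7 of 39 tests passed and 12 had an unadjusted p under 0.05. The test called 43.6% of all genes in VTA, 20.4% in AMY, 20.9% in Nac and 23.3% in PFC, so these counts are close to or below the background, and the number series cannot be told apart from the schedule here. The chronic saline libraries are the same ones that served as controls for chronic cocaine.

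Chrna4 in VTA had a median of 215.4 CPM (134.5 to 285) in 28 acute saline libraries and of 332.4 CPM (199.3 to 436) in 29 chronic saline libraries. The ranges overlapped, and 27 of the 29 chronic libraries lay above the acute median. Chrna4 rose by 0.59 (SE 0.0861, adjusted p = 1.65e-08). Chrna6 went from a median of 173.9 CPM (47.75 to 276.2) to 250.6 CPM (101.1 to 399.7), with 21 of 29 above the acute median, and rose by 0.66 (SE 0.167, adjusted p = 0.00083). Chrnb3 rose by 0.51 (SE 0.153, adjusted p = 0.00445), from a median of 110.3 to 133.8 CPM, and Chrna3 by 0.64 (SE 0.145, adjusted p = 0.000168), from 14.12 to 19.77 CPM. Chrnb2 differed by 0.05 (95% interval -0.0265 to 0.119) and Chrna5 by 0.24 (-0.0857 to 0.569). The 4 subunits that rose followed the dopamine neuron list between libraries, as given above. Chrnb2 (r = 0.855) and Chrna5 (r = 0.753) followed it too and were not called here.

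Chrnb4 went the other way. Its median was 1.644 CPM (0.04604 to 7.942) in acute saline libraries and 0.8968 CPM (0.3372 to 1.747) in chronic ones, 1 of which lay above the acute median. It fell by 1.26 on the log2 scale (SE 0.284, adjusted p = 0.00016), whereas limma voom gave -0.554 (adjusted p = 0.166). Its highest levels were in acute libraries of both series, up to 6.939 CPM in series 1000 and 7.942 in series 1100, and no chronic saline library passed 1.747.

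Dopamine neuron genes moved with the subunits that rose. In VTA 8 of the 10 genes of that list rose: Slc6a3 by 1.08, Pitx3 by 0.85, Aldh1a1 by 0.80, Ddc by 0.78, Slc18a2 by 0.71, Th by 0.58, Ret by 0.40 and En1 by 0.35, with a list median of 0.646 against 0.00286 over all genes tested. The test called 43.6% of all genes there. The rise was not particular to this list: every gene of the microglia list also rose past the threshold, P2ry12 the most (0.54). The sum of the dopamine neuron list ran from 1710 to 6314 CPM (median 4081) in acute saline libraries and from 3062 to 9566 CPM (median 6461) in chronic ones. With the list's level in the model Chrna6 differed by 0.00427, Chrnb3 by -0.0813 and Chrna3 by 0.13 (adjusted p = 0.197). Chrna4 still differed by 0.27 (adjusted p = 1.96e-06), and Chrnb4 by -1.71 (adjusted p = 1.14e-06), with 46.6% of all genes called. The list comes from the same libraries, and its part in the differences was not tested.

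The cocaine groups give a comparison of schedules in other libraries. There Chrna4 differed by 0.50, Chrna6 by 0.57, Chrnb3 by 0.48 and Chrna3 by 0.65, all past the threshold, and Chrnb4 by -0.59 (adjusted p = 0.0977), against 38.2% of all genes called. Within number series 1000, which holds both schedules under cocaine, Chrna4 differed by 0.36 (adjusted p = 0.00574), Chrna3 by 0.46 (adjusted p = 0.0226) and Chrnb4 by -0.88 (adjusted p = 0.0333). Chrna6 there differed by 0.35 (adjusted p = 0.139) and Chrnb3 by 0.28 (adjusted p = 0.199), and 26.7% of all genes were called. In VTA, number series also differed within a schedule: under acute saline the median of Chrna6 was 216.1 CPM in series 1000 and 121.6 in series 1100, and under chronic saline 279.3 in series 1200 and 193.5 in series 500.

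**Figure D5:**
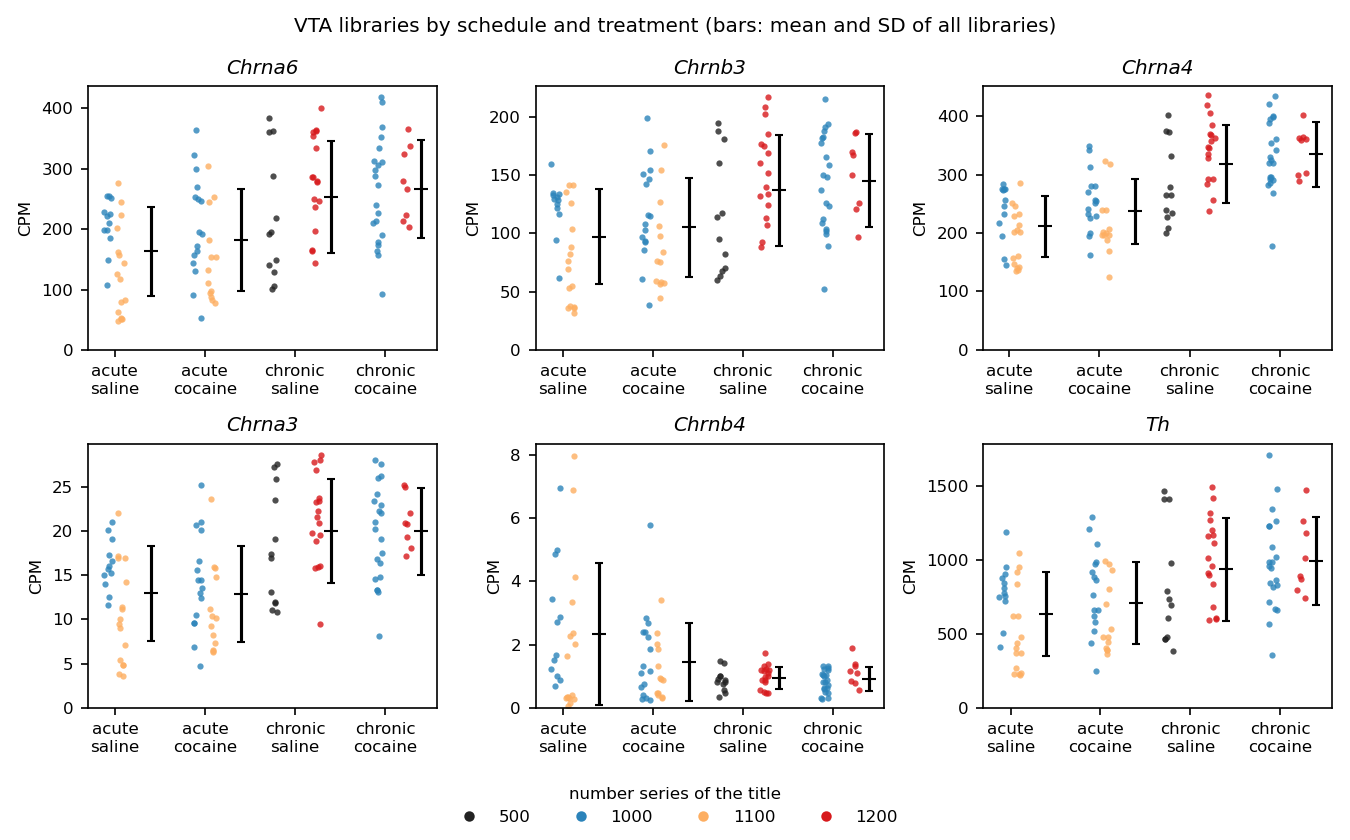
Levels in CPM of 5 subunits and of Th, the enzyme that limits dopamine synthesis, in each VTA library (points) by schedule and dose, coloured by number series, with the mean and SD of all libraries of a group as bars. Chrna4 under saline moves from a median of 215.4 (acute) to 332.4 (chronic), and Chrnb4 values reach 7.942 in acute saline libraries but at most 1.747 in chronic saline libraries.

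Smaller differences with schedule were found outside VTA. Chrna7 in AMY fell by 0.22 (SE 0.0733, adjusted p = 0.0207), from a median of 18.68 to 16.25 CPM, with 8 of 30 chronic libraries above the acute median. Chrna4 in PFC fell by 0.13 (adjusted p = 0.0466), from 69.91 to 63.56 CPM. Chrna4 thus differed in opposite directions in PFC and VTA, and the difference between regions was not tested. In Nac Chrna4 differed by -0.30 (adjusted p = 0.0878), and the acute saline libraries there included 5 of the 6 with the most cortical RNA.

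The remaining genes of acetylcholine signalling had few calls outside the schedule comparison, where few genes of any kind were called. Over the other 8 tested comparisons in 4 regions, 0 of 112 tests of other nicotinic subunits, 0 of 288 of receptor chaperones and toxin-like regulators and 0 of 192 of genes that handle acetylcholine passed. Of 160 tests of muscarinic receptors 1 passed, Chrm3 in PFC under chronic cocaine (-0.22, adjusted p = 0.00334), and 1 of 200 of cholinergic neuron factors, Isl1 as given above. Of all genes, these comparisons called 7.12% for chronic cocaine in PFC and 2.19% and 1.12% for sex in AMY and PFC. They called at most 0.332% in every other case, so the low counts say little about these genes by themselves. With schedule under saline the test called 20.4% to 43.6% of all genes, depending on the region, and the counts that follow are read against that. Of 20 muscarinic tests 1 rose and 8 fell, among them Chrm1 in VTA (-0.72), Chrm2 in Nac (-0.63), Chrm3 in VTA (-0.48) and Chrm4 in AMY (-0.45). Of 24 tests of acetylcholine handling 5 rose and 0 fell, with Bche, a cholinesterase, in PFC (0.52) and Prima1, the membrane anchor of acetylcholinesterase, in VTA (0.51) the largest. Of 36 tests of chaperones and toxin-like regulators 4 rose and 3 fell, among them Lypd1 (-0.40) and Lypd6 (-0.31) in VTA. The shares called among handling and chaperone genes were thus near or below that background.

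Chrna2, a subunit outside the listed 8, fell most of all nicotinic subunits with schedule in VTA, by 5.07 on the log2 scale (SE 0.549, adjusted p = 5.66e-13). Its median was 4.419 CPM (0.04261 to 49.78) in acute saline libraries, 19 of 28 of which were above 1 CPM, and 0.3546 CPM (0.05066 to 0.7705) in chronic saline libraries, none of 29 above 1 CPM. Under cocaine 14 of 29 acute and 0 of 29 chronic libraries were above 1 CPM. In the same comparison, which called 43.6% of all genes, Nkx2-1, listed as a factor of forebrain cholinergic neurons, fell by 2.60. Pax7, of the interpeduncular list, fell by 2.45 and Sim1, of a list of amygdala and hypothalamus markers, by 2.23. No gene of these lists rose past the threshold there, and Chat and Slc5a7 were not called.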

How the data were processed

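RNA was extracted with a column kit that set small RNA aside, treated with DNase and made into stranded polyA libraries sequenced as 50-base single reads, per the labels' protocols. The authors deposited raw counts per Ensembl gene (unit: counts). The submitters' processing notes name STAR, featureCounts, limma and GRCm38/mm10; their versions, the annotation and the strand setting are not stated there. Symbols came from a reference table (42462 of 43346 identifiers; identifiers without one held 0.11% of counts). Libraries held 11.21 to 52.34 megacounts.

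Each region was fitted with edgeR 4.0.16 in R 4.3.3 (filterByExpr, TMM factors, 16 group means, robust glmQLFit, glmQLFTest); pairs of regions used all 454 libraries and 64 groups. P-values were Benjamini-Hochberg adjusted over 17391, 17266, 17003 and 17144 genes tested in AMY, Nac, PFC and VTA and 18627 between regions; the threshold was 0.05. CPM are counts divided by total and TMM factor. Housing is isolated minus group housed, sex females minus males, schedule chronic minus acute. Alternatives were DESeq2 1.42.0, limma 3.58.1 voom, RLE factors, no filter, leaving out libraries that stand apart, number series as a covariate or separately, and, chosen after seeing the data, schedule in the cocaine groups, series 1000 alone and marker lists as covariates. Named were all members, and genes of the fixed lists that passed (at most 4 a list, but all that passed of the dopamine list in VTA and the striatal list in PFC, named after their values were seen), beside the 5 genes most alike each member. An item is not reported here. The code was tested on simulated data. Members and lists were chosen with earlier results of these data known. No pair of libraries of a group matched within sampling noise (lowest chi-square per degree of freedom 2.687).

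Title numbers recur across regions with the same labels (99 to 106 shared between a pair of regions). Deviations of same-numbered libraries had a median correlation of 0.0147 to 0.0492, over 0.1 for 9 to 25 numbers. For libraries with other numbers the medians were lower, at -0.00153 to -3.05e-05. A low correlation between different tissues cannot show whether equal numbers mean the same animal, and this was left undecided. The main fit did not pair libraries by number, and a fit with the number as a block was an alternative.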

Additional observations from a re-analysis of the deposited data

Results flagged for a closer look

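In 160 groups (8 subunits in VTA, Chat and Slc5a7 in Nac, 16 groups each) the highest or lowest library was checked against the others of its group by Dixon's criterion, and 24 values lay far from them, 4 of these in libraries that stand apart. Chance alone flags about 1 in 20 groups. Values are CPM. No member's cocaine or housing effect differed between groups past the threshold in its own test.

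The same libraries recur among the dopamine neuron subunits of VTA. Replicate 2 of group-housed males with acute cocaine held 299 of Chrna6 (others 52.2 to 132) and 171 of Chrnb3. Replicate 2 of isolated males with acute cocaine held 365 of Chrna6 (others 97.6 to 196), 199 of Chrnb3, 25.1 of Chrna3 and 25 of Chrna5. Replicate 5 of isolated males with chronic cocaine held 401 of Chrna4 (others 291 to 298), 338 of Chrna6, 187 of Chrnb3 and 23.1 of Chrna5. Replicate 5 of isolated males with acute saline was low in Chrna5, at 5.19 (others 12.5 to 17.6). Chrnb4 reached 5.79 in replicate 4 of isolated females with acute cocaine and 7.94 in replicate 6 of isolated females with acute saline (others up to 2.39 and 2). Chrnb2 was low in replicate 8 of isolated females with acute cocaine (89.5, a library that stands apart) and in replicate 7 of group-housed males with acute saline (90.7).

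Chrna7 in VTA was 1.97 in replicate 2 of isolated males with chronic saline (others 20.1 to 27.7), and libraries of the same title number held 14.19 in AMY, 12 in Nac and 13.17 in PFC. It was 7.62 in replicate 7 of group-housed males with acute cocaine, 32.1 in replicate 7 of isolated males with acute cocaine (a library that stands apart) and 32.5 in replicate 7 of isolated males with acute saline.

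In Nac, replicate 2 of isolated females with acute saline held 55.7 of Chat (others 19.2 to 29) and 81.3 of Slc5a7 (others 40.6 to 50.8). Replicate 6 of isolated females with chronic saline, which stands apart, held 1.1 of Chat and 18 of Slc5a7. Replicate 5 of group-housed females with acute cocaine held 56.7 of Slc5a7 (others 46.6 to 50.1).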

How the results depend on the processing

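Over the alternatives, counts of members called stayed within 1.5 times the main count in 375 cases and moved in 16, and single members kept direction and side of the threshold in 612, became weaker in 22, stronger in 4 and reversed in 12. The cause was not tested. Chronic cocaine in PFC had 0 members called with no filter, without libraries that stand apart, with limma voom, with series or the striatal list as a covariate, and within series 1200. Sex in PFC had 2 called by DESeq2. Within Nac series 500 housing had 5 called and sex 3, beside 8163 and 8087 genes. In that series the only Nac library of isolated females was replicate 6 with chronic saline, which stands apart. It held the lowest Chrna7 (0.5486 CPM) and Chat (1.097 CPM) of Nac. Housing and sex values within Nac series 500 therefore cannot be separated from this library, and no conclusion is drawn from them. Schedule had 2, 1 and 2 called in AMY, Nac and PFC in the cocaine groups, 2, 2 and 2 within series 1000, and 0 in PFC with no filter. Reversed log2 values in Nac were Chrnb2 for sex within series 1200 (-0.0384) and 500 (-0.144), Slc5a7 for sex within series 500 (-0.576), Chrna4 for acute cocaine within series 1000 (0.0135), and, for schedule in cocaine groups and in series 1000, Chrna4 (0.145 and 0.325) and Chrna5 (0.372 and 0.795). Within series 1100 Chat (0.0677) and Slc5a7 (0.0741) reversed for sex in PFC, within series 1200 Slc5a7 for chronic cocaine in VTA (0.0078), and with the dopamine list Chrnb3 for schedule in VTA (-0.0813). Leaving out each replicate of the only group of 5 (AMY, isolated males, acute cocaine) gave 0 to 0 members called. Over the pairs of regions the main fit called 10, 10, 10, 9, 10 and 10 members. With and without the title number as a replicate block, limma voom called the same ones, except Chat between AMY and VTA in 1 of these fits. Within a region no paired analysis was possible because each number falls in 1 group. For chronic cocaine in PFC 7.12% of all genes were called, and 639 genes were called with no filter, 435 without libraries that stand apart, 12 with the striatal list and 1 with series as a covariate or within series 1200. For schedule within series 1000 they numbered 2295, 814, 2526 and 4632 in AMY, Nac, PFC and VTA (3540, 3608, 3954 and 7470 under saline). For sex in AMY they fell from 381 to 226 without libraries that stand apart, and for acute cocaine in VTA they rose from 8 to 545 within series 1000. Chrnb4 in PFC and Chat in PFC rest on few reads a library.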
